A study of Bos taurus with 9 samples.

Results

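The genes of the ISG15 conjugation pathway were measured in bovine endometrial epithelial cells (BEEC) that had shared a culture with embryos. The genes were chosen by name: ISG15 itself, the enzymes UBA7, UBE2L6, HERC5, HERC6 and TRIM25 that attach it or are linked to its attachment, and the protease USP18 that removes it. Of these 7 names, 6 matched a row of the deposited table of 24596 genes, and all 6 passed the filter on low counts that left 11839 genes for testing. No row carried the name USP18, so USP18 was not analysed here.

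ISG15 is a small ubiquitin-like protein whose gene is switched on by interferons. Like ubiquitin, it is joined to target proteins by a relay of an activating enzyme (E1), a conjugating enzyme (E2) and a ligase (E3), and a dedicated protease takes it off again. In the ruminant uterus ISG15 is a classical response of the endometrium to interferon tau, the signal by which the early conceptus announces itself to the mother.

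The BEEC had been scraped from 3 uteri of the early luteal stage, grown in medium with 10% fetal bovine serum, frozen, thawed and seeded. Groups of 5 pre-conditioned morulae lay on the monolayers from day 4 to day 8 after fertilisation, and the cells of 3 wells were then pooled for RNA. The libraries differ in the embryos' earlier regime, for which the labels give the names HIGHGLUC, LOWAA and control and no concentration, with 3 libraries each. The comparisons ask whether endometrial cells carry other transcripts after contact with embryos of another nutrient history.

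All 3 groups had embryos, so no group gave the level of the pathway in BEEC alone. Replicates carry the numbers of the labels: HIGHGLUC 6, 10 and 14, LOWAA 8, 12 and 15, and control 5, 9 and 13. Nothing in the labels ties a library to its own culture or uterus, so the p-values measure the spread between these libraries, which may be technical. In such pooled cells, fewer cells of a type and less RNA per cell cannot be told apart.

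The 9 libraries held 6927123 to 10398399 exon reads, except control replicate 5 with 2887097 and control replicate 9 with 13969325. The keratin genes KRT8, KRT18 and KRT19 were abundant, and 10 epithelial markers summed to 7881 to 8339 CPM, a gene's count relative to all exon reads of its library, in HIGHGLUC, 8052 to 8502 in LOWAA and 7844 to 8932 in control. CLDN7 and GRHL2 of that list had 0 reads, and EPCAM had 13 reads in all libraries together. The 8 stromal fibroblast markers summed to 10555 to 12763 CPM in HIGHGLUC, 11155 to 13099 in LOWAA and 10831 to 13152 in control, so the cells labelled epithelial carried transcripts of both kinds. Leukocyte and myeloid markers, 10 of 11 found, summed to at most 17.3 CPM, with PTPRC, CD3E and CD2 at 0 reads. Endothelial markers, 6 of 6 found, summed to at most 4.50 CPM with CDH5, KDR and CLDN5 at 0 reads, and embryo markers, 4 of 10 found, to at most 1.04 CPM with SOX2 at 0 reads. The summed levels of every marker list overlapped between the groups, and their part in the results below was not tested. Single markers could differ: in HIGHGLUC over control KRT7 had a log2 fold change of -0.26 ± 0.08 (SE). Of the 6 epithelial markers tested, 5 were lower and 1 higher. CD163 had -0.60 ± 0.23 and CD14, the other leukocyte and myeloid marker tested, 0.44 ± 0.34. The edgeR fit described below called 0 of these markers.

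ISG15 stood far above its enzymes when levels were set per length. On the authors' RPKM scale, read counts divided by exon length and library total, ISG15 averaged 989 ± 184 RPKM (SD over all 9 libraries), which ranked 76 among the 15300 genes with reads. HERC6 followed with 189 ± 17.5 RPKM, rank 379, and UBA7 with 96.4 ± 14.4 RPKM, rank 773. TRIM25 had 52.8 ± 5.51 RPKM and HERC5 27.8 ± 5.10 RPKM, ranks 1561 and 3019. UBE2L6 was lowest with 13.2 ± 2.78 RPKM, rank 5682. The order was the same in all 9 libraries. The ranges over libraries did not meet between neighbours in this order, except for HERC5 (19.3 to 33.1 RPKM) and UBE2L6 (10.9 to 19.7 RPKM). Within each library HERC5 was still 1.67 to 2.81 times UBE2L6.

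**Figure D1:**
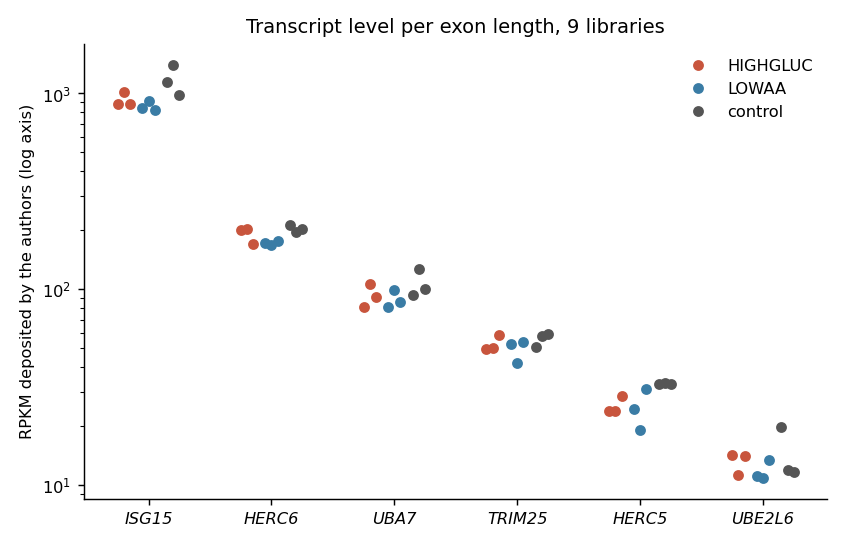
Level per length of the 6 genes in RPKM on a log axis, 1 point for each library, coloured by group in the order HIGHGLUC, LOWAA, control. ISG15 lies between 824 and 1403 RPKM and UBE2L6 between 10.9 and 19.7 RPKM, and the order of the genes is the same in every library.

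The E1 and E2 of the relay were thus present at unequal levels. Per length, the level of UBA7 divided by that of ISG15 was 0.0919 to 0.105 in HIGHGLUC, 0.0955 to 0.108 in LOWAA and 0.0816 to 0.102 in control. For UBE2L6 the same ratio was 0.0112 to 0.0161 in HIGHGLUC, 0.0118 to 0.0163 in LOWAA and 0.00854 to 0.0173 in control. The 2 HERC ligases also differed: HERC6 was 7.65 ± 1.45 times HERC5 per length in HIGHGLUC, 7.15 ± 1.52 times in LOWAA and 6.18 ± 0.275 times in control. In humans HERC5 is the main ISG15 ligase, while mice lack HERC5 and use HERC6. Cattle have both genes, and both were read in every library here.

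The 2 ligase genes are neighbours. On the build UMD3.1, HERC5 (ENSBTAG00000020538) spans 37683712 to 37728536 of chromosome 6 with 22 exons, and HERC6 (ENSBTAG00000020536) spans 37736137 to 37793279 with 23 exons. ISG15 (ENSBTAG00000014707) is the shortest of the genes, from 52714626 to 52715665 of chromosome 16 with 2 exons that hold 602 bases. UBA7 (ENSBTAG00000012335) lies at 50991901 to 51000966 of chromosome 22 with 24 exons. UBE2L6 (ENSBTAG00000012989) lies at 82124875 to 82138170 of chromosome 15 with 4 exons. TRIM25 (ENSBTAG00000009948) lies at 7939850 to 7959817 of chromosome 19 with 9 exons. For all 6 genes the unique exon reads equalled the total exon reads in each of the 9 libraries, so no read of theirs was placed among near-identical copies.

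Together the 6 genes took up a small part of the reads. Their share of the exon reads was 0.181%, 0.202% and 0.180% in HIGHGLUC, 0.169%, 0.186% and 0.176% in LOWAA, and 0.209%, 0.241% and 0.207% in control. Every library of HIGHGLUC and of LOWAA lay below every control library in this share, which ISG15 and HERC6 dominate. The mean log2 level of the 6 genes, which weights them equally, differed from the control mean by -0.23 to -0.17 in HIGHGLUC libraries, by -0.34 to -0.20 in LOWAA libraries and by -0.06 to 0.04 in the control libraries themselves. No test was made on these sums.

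ISG15, the modifier, had 591, 659.9 and 582 CPM in HIGHGLUC replicates 6, 10 and 14, here and below scaled with TMM factors between libraries. It had 564, 626 and 549 CPM in LOWAA replicates 8, 12 and 15, and 754, 928 and 664 CPM in control replicates 5, 9 and 13. All libraries of both regimes were below all control libraries, though HIGHGLUC replicate 10 came close to control replicate 13. Of all tested genes, 3.57% lay so in HIGHGLUC and 5.02% in LOWAA, and the share that did so in both was not counted. The means were 611 ± 42.8 CPM in HIGHGLUC, 579.7 ± 41.2 CPM in LOWAA and 782 ± 134 CPM in control (SD, n = 3 each). The fold was 0.781 for HIGHGLUC over control and 0.741 for LOWAA over control. The control libraries were the most scattered, and replicate 9, the deepest, was the highest.

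UBA7, the E1 that activates ISG15, had 287, 366 and 319.8 CPM in HIGHGLUC, 284, 358 and 304 CPM in LOWAA, and 324, 444 and 357 CPM in control. The groups overlapped, and in each group the library of the middle number (10, 12 or 9) was the highest. UBA7 averaged 324 ± 39.9 CPM in HIGHGLUC, 315 ± 38.2 CPM in LOWAA and 375 ± 61.9 CPM in control (SD, n = 3 each). UBE2L6, the E2 that works with UBA7, had 16.2, 12.6 and 15.9 CPM in HIGHGLUC, 12.6, 12.7 and 15.2 CPM in LOWAA, and 22.2, 13.5 and 13.5 CPM in control. Its highest value came from control replicate 5, where it rested on 63 reads. It had the fewest reads of the 6 genes, between 63 and 192 a library.

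HERC5, the ligase that in humans modifies newly made proteins on ribosomes, had 77.7, 76.0 and 92.7 CPM in HIGHGLUC. It had 79.6, 64.2 and 100.6 CPM in LOWAA and 106, 107 and 108 CPM in control. The control libraries lay close together and above all the others, a joint pattern whose share over all tested genes was not counted. The means were 82.1 ± 9.16 CPM in HIGHGLUC, 81.5 ± 18.3 CPM in LOWAA and 107 ± 0.972 CPM in control (SD, n = 3 each).

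HERC6, the ligase used by mice, had 752, 745 and 635 CPM in HIGHGLUC, 643, 643 and 656 CPM in LOWAA, and 788, 726 and 769.6 CPM in control. The LOWAA libraries lay together below all control libraries, while HIGHGLUC reached from below the LOWAA libraries into the control range. The means were 711 ± 65.8 CPM in HIGHGLUC, 647 ± 7.31 CPM in LOWAA and 761 ± 32.3 CPM in control (SD, n = 3 each). TRIM25, a ligase known for activating the RNA sensor RIG-I and reported to act as an ISG15 ligase, had 130.4, 129 and 154 CPM in HIGHGLUC. It had 138, 113 and 142 CPM in LOWAA and 132, 150.4 and 158 CPM in control, and its groups overlapped. TRIM25 averaged 138 ± 14.1 CPM in HIGHGLUC, 131 ± 15.5 CPM in LOWAA and 147 ± 13.5 CPM in control (SD, n = 3 each).

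**Figure D2:**
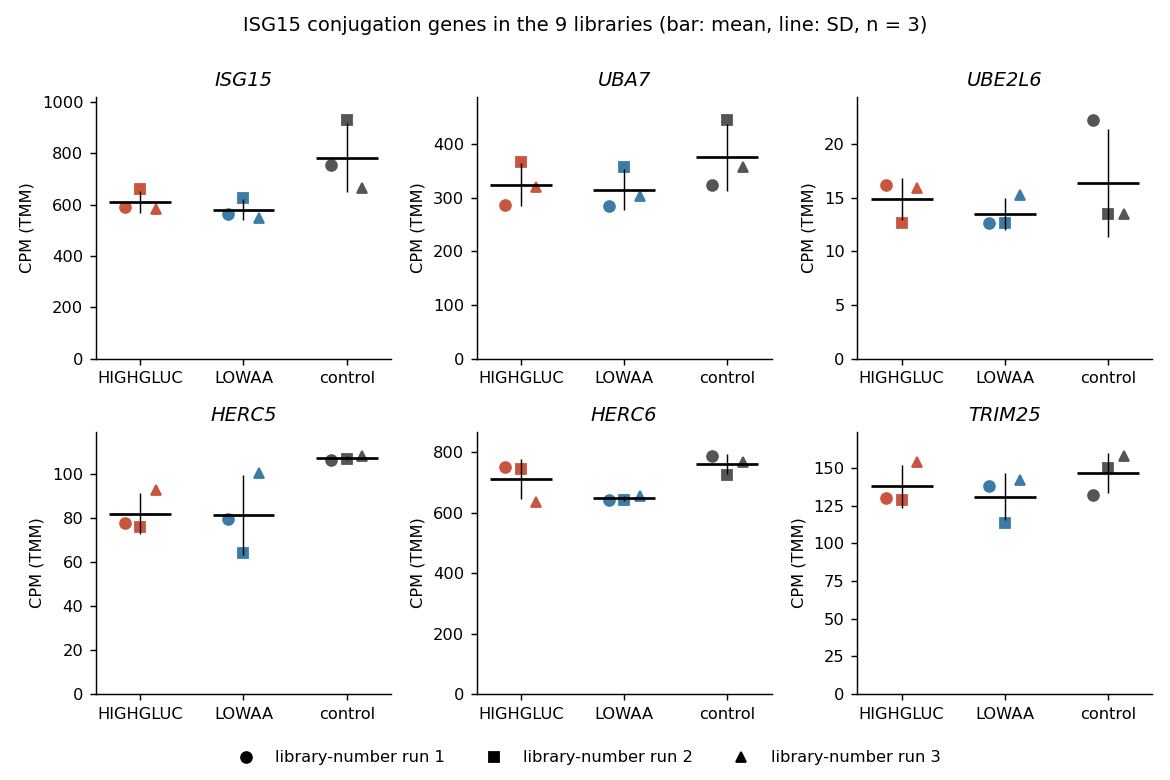
Level of each of the 6 genes in CPM with TMM factors, 1 panel a gene with its own axis from 0, 1 point a library, groups from left to right HIGHGLUC, LOWAA and control, with the group mean as a horizontal bar, the SD as a vertical line and the symbol for the run of library numbers. ISG15 and HERC5 lie lower in every HIGHGLUC and LOWAA library than in every control library, and HERC6 does so in LOWAA. Of all tested genes, 3.57% lie so in HIGHGLUC and 5.02% in LOWAA, and the share for both was not counted.

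After co-culture with HIGHGLUC embryos all 6 genes had a lower fitted level than with control embryos, but none passed the test in the fit with the group as its only term. The counts were tested with edgeR's quasi-likelihood test over all 11839 genes with Benjamini-Hochberg adjustment at 0.05, which called 0 genes in this comparison (0% of those tested). At an unadjusted p under 0.05 it listed 353 genes (2.98%), of which 190 were lower (1.60%), and 2 of the 6 pathway genes were among the lower ones. DESeq2 and limma-voom also called 0 genes. These 2 genes were ISG15, with a log2 fold change of -0.36 ± 0.12 (SE) and a 95% interval of -0.61 to -0.10, and HERC5, with -0.39 ± 0.14 and -0.69 to -0.08. In edgeR their unadjusted p was 0.00995 and 0.0179, and their adjusted p was 1.00. These were also the genes whose HIGHGLUC libraries all lay below the control libraries, a pattern that 423 of the tested genes showed (3.57%).

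The other genes had intervals that reached across 0. The log2 fold change of HIGHGLUC over control was -0.21 ± 0.13 for UBA7 (95% interval -0.50 to 0.08) and -0.08 ± 0.19 for UBE2L6 (-0.50 to 0.35). It was -0.10 ± 0.08 for HERC6 (-0.28 to 0.09) and -0.10 ± 0.11 for TRIM25 (-0.34 to 0.15). The median over the 6 genes was -0.16, beside 0.00 for all tested genes, of which 50.0% had a value below 0. Without control replicate 5 that median was -0.23, and UBE2L6 then had 0.14.

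After co-culture with LOWAA embryos all 6 genes again had a lower fitted level than with control embryos, and none passed the test in the fit with the group as its only term. In edgeR 0 genes were called (0%), 474 had an unadjusted p under 0.05 (4.00%), and 291 of these were lower (2.46%). DESeq2 called 4 genes and limma-voom 0, none of them in the pathway. Of the 6 pathway genes, 3 were among the lower ones: ISG15 with a log2 fold change of -0.43 ± 0.12 (95% interval -0.69 to -0.18), HERC5 with -0.40 ± 0.14 (-0.70 to -0.09) and HERC6 with -0.23 ± 0.08 (-0.42 to -0.05). Their unadjusted p in edgeR was 0.00301, 0.0155 and 0.0174, and their adjusted p was 1.00. The LOWAA libraries of these genes all lay below the control libraries, as in 594 tested genes (5.02%). UBA7 had -0.25 ± 0.13 (-0.54 to 0.04), UBE2L6 -0.22 ± 0.19 (-0.64 to 0.20) and TRIM25 -0.17 ± 0.11 (-0.41 to 0.07). The median over the 6 genes was -0.24, beside 0.00 for all tested genes, of which 49.1% had a value below 0.

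Both comparisons used the same 3 control libraries, so their results are not separate evidence. Control replicate 9 bore most on ISG15: without it the log2 fold change was -0.21 for HIGHGLUC and -0.29 for LOWAA. UBA7, whose highest control value also came from replicate 9, had -0.07 for HIGHGLUC and -0.11 for LOWAA without it. For HERC5 in LOWAA the value was -0.25 without LOWAA replicate 12, its lowest library, and -0.57 without LOWAA replicate 15, the highest of that group. HERC6 in HIGHGLUC had -0.02 without HIGHGLUC replicate 14. TRIM25 ranged from -0.18 without HIGHGLUC replicate 14 to -0.04 without control replicate 13 in HIGHGLUC, and in LOWAA had -0.07 without LOWAA replicate 12.

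**Figure D3:**
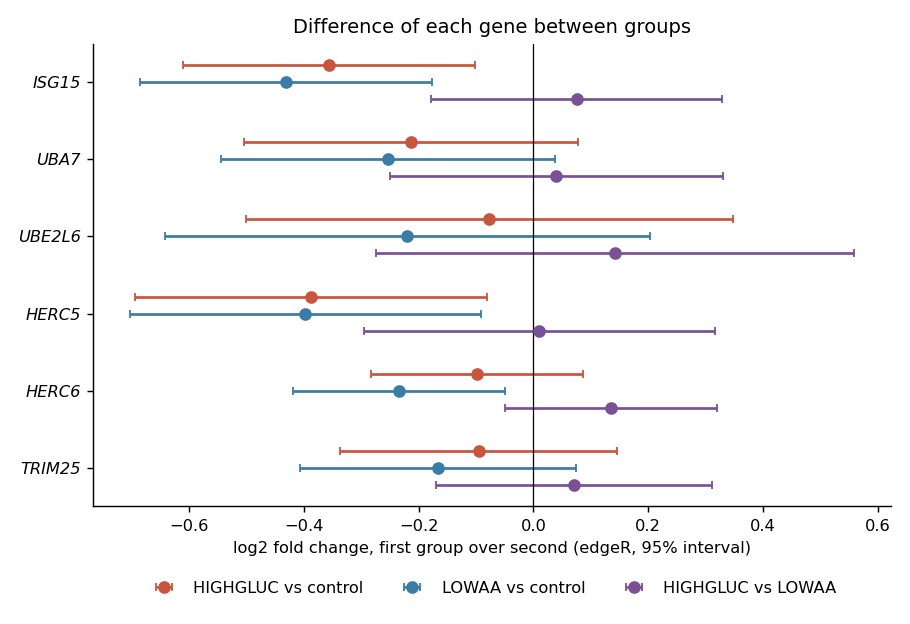
Log2 fold change of the 6 genes in the 3 comparisons HIGHGLUC over control, LOWAA over control and HIGHGLUC over LOWAA, each with its 95% interval from edgeR. The intervals of ISG15 and HERC5 lie below 0 in both comparisons with control and that of HERC6 in LOWAA over control, while all intervals of HIGHGLUC over LOWAA include 0.

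Between the 2 regimes no pathway gene passed the test on exon reads. ISG15 had a log2 fold change of HIGHGLUC over LOWAA of 0.08 ± 0.12 (95% interval -0.18 to 0.33), UBA7 0.04 ± 0.13 (-0.25 to 0.33) and UBE2L6 0.14 ± 0.19 (-0.27 to 0.56). HERC5 had 0.01 ± 0.14 (-0.30 to 0.32), HERC6 0.13 ± 0.08 (-0.05 to 0.32) and TRIM25 0.07 ± 0.11 (-0.17 to 0.31). In all 6 genes the libraries of the 2 regimes overlapped, while 458 tested genes lay lower in every HIGHGLUC library than in every LOWAA library (3.87%) and 525 lay higher (4.43%). edgeR called 0 genes (0%), listed 376 at an unadjusted p under 0.05 (3.18%), and had 0 of the 6 pathway genes among them, while DESeq2 called 3 genes and limma-voom 0. A p above the threshold does not show equal levels, and the intervals give the differences these libraries leave room for. A test over all 3 groups at once called 0 genes in edgeR, with an unadjusted p of 0.00607 for ISG15, 0.0227 for HERC5 and 0.0523 for HERC6 (adjusted p = 1.00 each).

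The authors' deposited table holds its own test, with a signed fold change in which -1.35 stands for a level 1.35 times lower than control. In the authors' deposited table HERC6 in LOWAA had a fold change of -1.18 with an FDR p of 0.0235, and was the only pathway gene among the 77 genes under 0.05 (0.313% of 24596). The authors' deposited table gives ISG15 -1.35 in LOWAA with an FDR p of 0.689 and -1.29 in HIGHGLUC with an FDR p of 1.00. For HERC5 the authors' deposited table gives -1.30 in both comparisons, with an FDR p of 0.795 in LOWAA and 0.0762 in HIGHGLUC. In HIGHGLUC 11 genes of the authors' deposited table were under 0.05 (0.0447%), 0 of them in the pathway.

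By number, the libraries form 3 runs that each hold a HIGHGLUC, a LOWAA and a control library: 6, 8 and 5, then 10, 12 and 9, then 14, 15 and 13. What the numbers stand for is not given in the labels. Taken within these runs in order, ISG15 in HIGHGLUC differed from control by -0.35, -0.49 and -0.19 on the log2 scale, and in LOWAA by -0.42, -0.57 and -0.27. All 6 differences were negative, as they were for UBA7, at -0.18, -0.28 and -0.16 in HIGHGLUC and -0.19, -0.31 and -0.23 in LOWAA. The same 3 control libraries entered both regimes, and how many of all tested genes had such signs was not counted. HERC5 differed by -0.45, -0.49 and -0.23 in HIGHGLUC and by -0.42, -0.74 and -0.11 in LOWAA.

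HERC6 differed from control within the runs by -0.07, 0.04 and -0.28 in HIGHGLUC and by -0.29, -0.17 and -0.23 in LOWAA. UBE2L6 pointed both ways, with -0.45, -0.10 and 0.24 in HIGHGLUC and -0.81, -0.09 and 0.18 in LOWAA. TRIM25 differed by -0.02, -0.22 and -0.04 in HIGHGLUC and by 0.07, -0.41 and -0.16 in LOWAA. Each run holds 1 library a group, so no run has a test of its own. With the runs as a replicate block, edgeR called 19 genes in LOWAA over control (0.160%), ISG15 among them (edgeR adjusted p = 0.0147). In the other comparisons that fit called 0 pathway genes. The ISG15 call was lost in some fits with 1 library left out, as the last section describes.

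**Figure D4:**
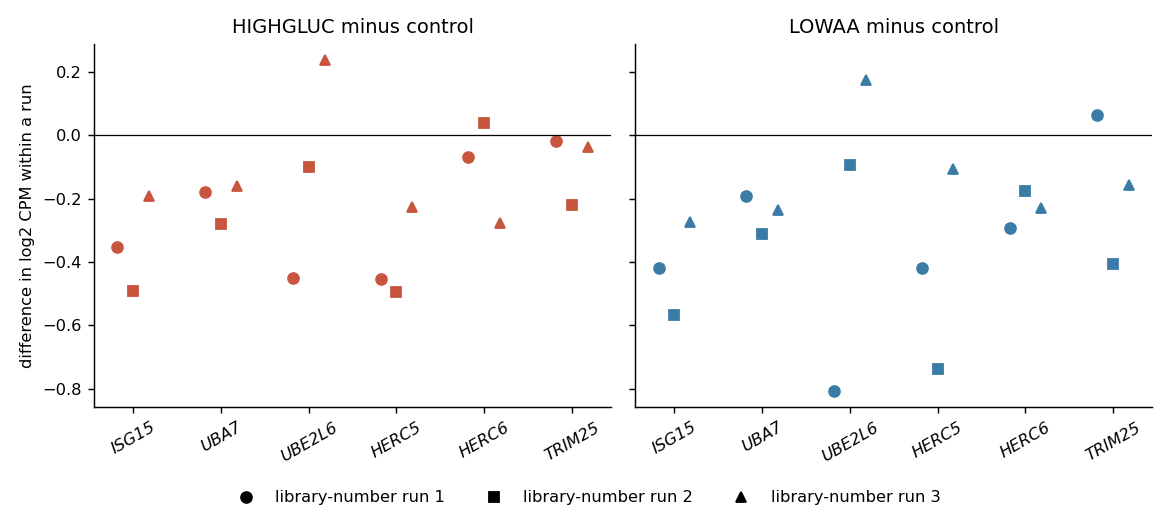
Difference from the control library of the same library-number run in log2 CPM, for each of the 6 genes, HIGHGLUC left and LOWAA right, 1 point a run. ISG15, UBA7 and HERC5 lie below 0 in all 3 runs of both regimes, and UBE2L6 lies on both sides of 0.

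Reads in introns, which come largely from unspliced transcripts, gave a second view of the same genes, chosen after the exon values were known. ISG15 has a single short intron and few such reads: 67, 31 and 44 in HIGHGLUC, 28, 37 and 19 in LOWAA, and 10, 95 and 74 in control. Scaled as CPM to the exon reads of the library, these are 7.42, 4.13 and 6.35 in HIGHGLUC, 2.69, 4.70 and 2.05 in LOWAA, and 3.46, 6.80 and 7.16 in control, and the groups overlapped. Fitted in edgeR on their own table of 9713 genes, the intron reads of ISG15 had a log2 fold change of -1.14 ± 0.27 in LOWAA over control (adjusted p = 0.267) and 0.18 ± 0.26 in HIGHGLUC over control (adjusted p = 1.00). HIGHGLUC over LOWAA had 1.31 ± 0.27 (adjusted p = 0.159). The fit called 0 genes in each comparison (0%), and at an unadjusted p under 0.05 it listed 315 in HIGHGLUC over control (3.24%), 667 in LOWAA over control (6.87%) and 747 in HIGHGLUC over LOWAA (7.69%). The pathway genes among these were 0 in HIGHGLUC over control, 2 in LOWAA over control (ISG15 and TRIM25) and 3 in HIGHGLUC over LOWAA (ISG15, HERC5 and TRIM25).

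In HIGHGLUC over control the intron value of ISG15 had the opposite sign to its exon value, with a 95% interval of -0.36 to 0.71. HERC5 had 0.06 ± 0.19 in HIGHGLUC over control, -0.33 ± 0.19 in LOWAA over control and 0.40 ± 0.19 in HIGHGLUC over LOWAA by intron reads (adjusted p = 0.648 in edgeR for the last). TRIM25 had -0.32 ± 0.24 in HIGHGLUC and -0.91 ± 0.25 in LOWAA (adjusted p = 0.395 in edgeR), from 9 to 77 intron reads a library. In HIGHGLUC over LOWAA TRIM25 had 0.59 ± 0.26 (adjusted p = 0.625 in edgeR). The share of intron reads among a gene's reads was 19.5% in HIGHGLUC, 18.7% in LOWAA and 16.1% in control for HERC5. For HERC6 it was 8.97% to 12.9% in HIGHGLUC, 12.5% to 23.2% in LOWAA and 8.70% to 14.8% in control. The 23.2% of HERC6 and the 23.5% of HERC5 came from LOWAA replicate 12. Its intron share over all genes was the highest (13.7%, beside 7.05% to 10.5% in the others). The 12.2% of HERC5 came from control replicate 5, which had the lowest share over all genes (7.05%).

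Reads across exon-exon junctions come from spliced transcripts. Among the exon reads of ISG15, which has a single junction, they made up 18.3%, 16.5% and 16.2% in HIGHGLUC, 18.3%, 17.8% and 17.4% in LOWAA, and 19.0%, 19.4% and 18.5% in control. All control libraries lay above all the others in this share, but control replicate 13 (18.5%) and LOWAA replicate 8 (18.3%) were close. In control replicate 5 the share rested on 405 of 2137 reads. It was not tested, and how many other genes showed such a pattern was not counted. For the genes with many exons the share was 60.6% to 63.8% over all libraries in UBA7, 60.6% to 67.0% in HERC5 and 54.9% to 56.7% in HERC6. On their own table of 10079 genes, also chosen after the exon values were known, ISG15 had a log2 fold change of -0.50 ± 0.12 in HIGHGLUC over control and -0.51 ± 0.12 in LOWAA over control. HERC5 had -0.36 ± 0.12 and -0.41 ± 0.12 in the same 2 comparisons, and HERC6 -0.09 ± 0.09 and -0.23 ± 0.09. UBE2L6 had 0.26 ± 0.25 in HIGHGLUC and 0.36 ± 0.24 in LOWAA, a sign opposite to its exon reads, from 7 to 59 junction reads a library. edgeR called 0 genes of this table in each comparison (0%), and listed 367 in HIGHGLUC over control (3.64%), 368 in LOWAA over control (3.65%) and 328 in HIGHGLUC over LOWAA (3.25%) at an unadjusted p under 0.05. Among these were ISG15 and HERC5 in HIGHGLUC over control, ISG15, HERC5 and HERC6 in LOWAA over control, and 0 pathway genes in HIGHGLUC over LOWAA.

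None of the 34 other interferon response genes tested passed in edgeR. Their log2 fold change was below 0 in 33 genes in HIGHGLUC over control (50.0% of all tested genes) and in 33 in LOWAA over control (49.1% of all), and PARP10, an ADP-ribosyltransferase, was the exception in both, at 0.05 ± 0.18 and 0.01 ± 0.18. The median of the list was -0.26 in HIGHGLUC and -0.32 in LOWAA, beside 0.00 over all tested genes. At an unadjusted p under 0.05 in edgeR, 13 of the 34 were lower in HIGHGLUC, where 1.60% of all tested genes were, and 21 in LOWAA, where 2.46% were. The smallest p in HIGHGLUC belonged to CMPK2, a mitochondrial nucleotide kinase, at -0.56 ± 0.14, XAF1, a pro-apoptotic factor, at -0.36 ± 0.10, and OAS1X, of the oligoadenylate synthetase family, at -0.46 ± 0.14. In LOWAA they belonged to PARP14, an ADP-ribosyltransferase, at -0.59 ± 0.11, CMPK2 at -0.61 ± 0.14, and DTX3L, a ubiquitin ligase and partner of PARP9, at -0.39 ± 0.10. The list and the pathway were both chosen with earlier results of these data known.

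The machinery upstream of ISG15 was described by 17 tested genes of interferon receptors, JAK kinases, STATs, IRFs and their regulators. In HIGHGLUC over control 8 were higher and 9 lower with a median of -0.01, and in LOWAA over control 0 were higher and 17 lower with a median of -0.13. None was called in edgeR, and 0 in HIGHGLUC and 3 in LOWAA were lower at an unadjusted p under 0.05, beside 1.60% and 2.46% of all tested genes. These 3 were SOCS3, a feedback inhibitor of cytokine signalling, at -1.21 ± 0.33, STAT2, a subunit of the factor that switches ISG15 on, at -0.24 ± 0.09, and IRF1, a transcription factor induced by interferon, at -0.45 ± 0.19. SOCS3 was scarce, with 1.12 to 1.76 CPM in LOWAA and 2.47 to 3.87 CPM in control. In HIGHGLUC over LOWAA, 13 of the 17 were higher with a median of 0.14, and 4 had an unadjusted p under 0.05, beside 3.18% of all tested genes.

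Reported protein targets of ISG15 were counted in 2 parts, by whether they were on the interferon list. The 7 on that list, such as the RNA sensors DDX58 and IFIH1, were 0 higher and 7 lower in both comparisons with control, with medians of -0.26 in HIGHGLUC and -0.36 in LOWAA. They are part of the 34 interferon response genes above, so their counts are not separate evidence. Lower values were found in 50.0% of all tested genes in HIGHGLUC and in 49.1% in LOWAA. DDX58 had -0.36 ± 0.09 and IFIH1 -0.43 ± 0.12 in LOWAA. The other 15 targets were 6 higher and 9 lower in HIGHGLUC with a median of -0.01, and 5 higher and 10 lower in LOWAA with a median of -0.04.

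Relatives of the pathway enzymes that serve other modifiers had medians near 0. The 9 E1 enzymes of ubiquitin and other modifiers had medians of -0.07 in HIGHGLUC over control and 0.01 in LOWAA over control, and the 17 E2 enzymes related to UBE2L6 had 0.05 and 0.03. The 13 other ubiquitin-like modifiers had medians of 0.06 and -0.03 in the same order, the 4 other HERC ligases -0.02 and -0.06, and the 24 other TRIM ligases 0.02 and -0.05. In these 5 lists 0 genes were called in edgeR in each comparison.

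Among the 24 other TRIM ligases, 13 were higher and 11 lower in HIGHGLUC over control. In LOWAA over control 5 were higher and 19 lower. TRIM38, a regulator of antiviral signalling, had -0.27 ± 0.09 in both comparisons with control. TRIM68 and TRIM8 had the opposite sign in HIGHGLUC, at 0.35 ± 0.16 and 0.24 ± 0.13. TRIM21, an antibody receptor in the cytosol that is induced by interferon, had -0.23 ± 0.10 in LOWAA. Of 17 other ubiquitin proteases, some of them reported to remove ISG15, 12 were lower in HIGHGLUC and 11 in LOWAA, with medians of -0.04 and -0.06. Of all tested genes 50.0% and 49.1% were lower. USP25 of this list had -0.30 ± 0.10 in HIGHGLUC and -0.28 ± 0.10 in LOWAA. It was the only one of the 17 at an unadjusted p under 0.05 in edgeR, where 2.98% and 4.00% of all tested genes were.

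**Figure D5:**
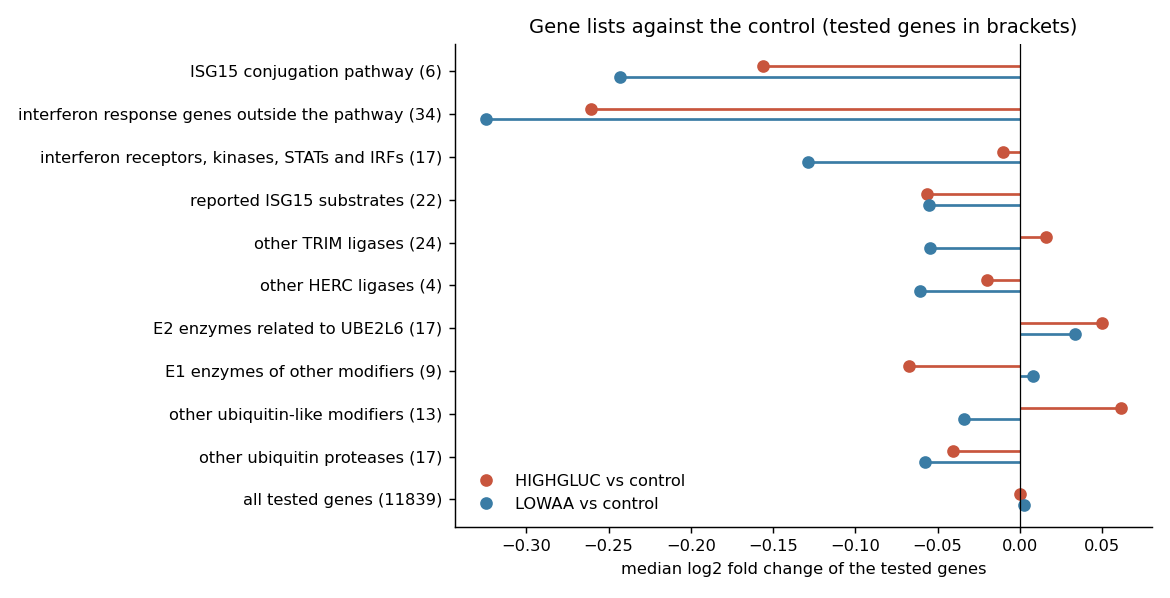
Median log2 fold change of 10 gene lists, HIGHGLUC over control and LOWAA over control, with the number of tested genes in brackets and all tested genes in the bottom row. The interferon response genes lie at -0.26 in HIGHGLUC and -0.32 in LOWAA, and the pathway genes at -0.16 and -0.24.

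The genes whose profile over the 9 libraries was most like that of ISG15 were PSMB8, OAS1X, SPATS2L, MBNL3, PRCP and ZNF512. Likeness was measured as the root mean square difference of centred log2 CPM over the 9 libraries among 7909 other genes with a mean of at least 10 CPM, and these 6 had values between 0.0885 and 0.109. PSMB8 is a subunit of the immunoproteasome, and OAS1X belongs to the antiviral synthetases. A flat profile would lie 0.226 from ISG15, which is the spread of ISG15 around its own mean. Of the pathway genes, UBA7 came nearest, at 0.126 and rank 20, followed by HERC6 at 0.189 and rank 429.

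TRIM25 lay 0.247 from ISG15, HERC5 0.256 and UBE2L6 0.313, all farther than a flat profile. HERC5 in turn was nearest to DTX3L, CMPK2 and IFIT1, at 0.105, 0.111 and 0.123. ISG15 and HERC5 were thus both lower in the 2 regimes than in control, while their values within the groups went different ways: control replicate 9 was the highest of all for ISG15 and in the middle of its group for HERC5, and LOWAA replicate 15 was the lowest of its group for ISG15 and the highest for HERC5. All genes in this ranking share the same 9 libraries and their depth, and no test was made on it.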

How the data were processed

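Total RNA of 9 libraries was sequenced as 50 bp single reads, per the labels' protocols, although the file headers call the libraries paired. Bowtie2, HTSeq 0.5.4p2 and the build UMD3.1 are named in the submitters' processing notes without their roles. Per the file headers, the deposited read columns are unscaled counts for each gene: all exon reads, those placed uniquely, intron reads and reads across exon-exon junctions. The RPKM values were deposited by the authors. The authors' signed fold change is a score, and their p-value columns hold the FDR-corrected p-value of their own test. Other deposited columns describe the annotation (exon length and number, chromosome, start and end). The table's 231 columns include 147 of library values that were not used.

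After filterByExpr (minimum count 10) and TMM scaling, edgeR 4.0.16 in R 4.3.3 fitted the counts for its robust quasi-likelihood test. All 9 libraries entered 1 fit with the group as the only term, and Benjamini-Hochberg adjustment ran over all 11839 genes at a threshold of 0.05. CPM carry TMM factors, except in marker sums, and log2 CPM have a prior count of 2. A count of 0 allows up to 3 reads, or 0.215 to 1.04 CPM, which covers counting error only. Chi-square over genes, per degree of freedom, was 8.55 to 22.9 for library pairs within groups, so none was a duplicate. The procedure was tested on simulated data. Alternatives were unique reads, other scalings, no filter, DESeq2 1.42.0, limma-voom (limma 3.58.1), a fit of 2 groups only, the library-number runs as a block, and leaving out each of the 9 libraries. Intron and exon-exon reads were added after seeing the data.

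The pathway genes and all lists were chosen with earlier results of these data known. Genes named from a list were up to 3 with the smallest p against control, and likeness named the 6 nearest genes to ISG15. HERC5's nearest genes, PARP10 and USP25 were named after their values were seen.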

Additional observations from a re-analysis of the deposited data

How the results depend on the processing

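The fits without a block called 0 pathway genes in each comparison, whether with unique reads, DESeq2 size factors, library sizes alone, no filter, DESeq2, limma-voom, the 2 groups compared alone, or 1 library left out. Over all genes DESeq2 called 4 in LOWAA over control, 3 in HIGHGLUC over LOWAA and 4 over all groups, and edgeR without HIGHGLUC replicate 6 called 1 in LOWAA over control, with 0 to 1 over the libraries left out.

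The groups share no replicate number, so the library-number runs served as the block. Libraries of a run deviated together above a correlation of 0.1 in 7 of 9 pairs with total reads (0.0221 to 0.606) and in 9 of 9 with unique reads (0.198 to 0.452). Of the 18 pairs from different runs, 6 did with total reads and 0 with unique reads. With total reads, the values tested, pairs from different runs ranged from -0.702 to 0.421 and overlapped the pairs within runs. With unique reads they ranged from -0.367 to 0.0319, below every pair within runs. The labels do not say what the runs stand for, so both fits are given. With the runs as a replicate block edgeR called 3 genes in HIGHGLUC over control (0.0253%), 19 in LOWAA over control (0.160%), 17 in HIGHGLUC over LOWAA (0.144%) and 24 over all groups. ISG15 was the 1 pathway gene among them, in LOWAA over control, at -0.42 (edgeR adjusted p = 0.0147). Leaving out 1 library from that block fit, which was added after seeing the data, gave -0.49 to -0.34, with -0.45 without LOWAA replicate 15. The call was lost without control replicate 5 (edgeR adjusted p = 0.0902), control replicate 9 (0.149), LOWAA replicate 8 (0.277) or LOWAA replicate 12 (0.266), and held in the other 5 cases (0.00726 to 0.0435). With unique reads and the block, 7, 57 and 36 genes were called in the comparisons in that order and 60 over all groups. Of these, 2 were pathway genes in LOWAA over control, ISG15 at -0.42 (edgeR adjusted p = 0.00280) and HERC5 at -0.41 (edgeR adjusted p = 0.0407).

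With 1 library left out, ISG15 ranged from -0.46 to -0.21 in HIGHGLUC over control and from -0.54 to -0.29 in LOWAA over control, highest without control replicate 9 in both. The median of the 6 genes ranged from -0.23 to -0.14 in HIGHGLUC over control, from -0.31 to -0.21 in LOWAA over control and from 0.0715 to 0.14 in HIGHGLUC over LOWAA. UBE2L6, the gene with the fewest reads, turned sign: it ranged from -0.20 to 0.14 in HIGHGLUC over control, above 0 without control replicate 5 or HIGHGLUC replicate 10, and had 0.0416 in limma-voom. In LOWAA over control it ranged from -0.34 to 0.000581, highest without control replicate 5. Signs also turned in HIGHGLUC over LOWAA, where UBA7 ranged from -0.0580 to 0.14, HERC5 from -0.13 to 0.19 and TRIM25 from -0.0217 to 0.13.

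Intron reads turned the sign of ISG15 (0.18) and HERC5 (0.0624) in HIGHGLUC over control and of HERC6 in HIGHGLUC over LOWAA (-0.18), and gave medians of -0.33 in LOWAA over control and 0.29 in HIGHGLUC over LOWAA. Exon-exon reads turned UBE2L6 to 0.26, 0.36 and -0.10 in the 3 comparisons. The cause of these turns was not tested. Control replicate 5 had the fewest reads, and UBE2L6 had 63 there, so its precision was limited by depth. With 3 libraries a group, 0 calls do not show equal levels.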
